A study of Mus musculus with 9 samples.

Results

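Genes whose symbol is Zfp followed by a number encode zinc finger proteins, and their transcripts were followed in mouse macrophages that were resting, activated with lipopolysaccharide (LPS) or given BMS303141 before LPS. The members were all listed genes whose Ensembl identifier maps to such a symbol, leaving out Zfp36, which encodes a zinc finger protein of another kind that binds messenger RNA. They numbered 232 of 12204 listed genes (1.9%), out of 373 genes so named in the GENCODE M21 annotation. All 232 passed the filter on low values, 230 are annotated as protein-coding, and Zfp125 and Zfp783 are transcribed pseudogenes.

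The name covers proteins with a shared fold, not a single pathway. A C2H2 zinc finger is a short loop in which a pair of cysteines and a pair of histidines hold a zinc ion, and a row of such fingers can read a DNA sequence. Many of these proteins also carry a KRAB domain, which recruits Trim28 (KAP1) and, through it, the histone methyltransferase Setdb1 and heterochromatin proteins, and so silences the bound DNA. KRAB zinc finger genes are known for silencing retroelements and for guarding imprinted genes, and they lie in groups of neighbouring, related copies. Other members bind RNA, work on ribosomes, act as ubiquitin or SUMO ligases, or regulate transcription without a KRAB domain.

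The macrophages of all 3 groups were grown from bone marrow of C57/Bl6J mice in medium with 20% L929 cell supernatant, which supplies macrophage growth factor, over 6 days. The groups were untreated macrophages, macrophages given 10 ng/ml LPS for 4 h, and macrophages given 50 µM BMS303141 for 1 h and then LPS in the same way, with 3 libraries each. LPS, from the bacterial cell wall, is sensed by Toll-like receptor 4. BMS303141 is an inhibitor of ATP-citrate lyase, the enzyme that supplies acetyl-CoA in the cytosol. No library received BMS303141 alone and no vehicle is named in the labels. Whether replicates were different mice or cultures is not stated, so the p-values cover the spread among these libraries alone, and that spread may be technical.

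Levels are log2 CPM (reads of a gene scaled to a common library total, CPM) of reads from transcript 3′ ends, where a transcript gives reads from its end only, so a level is not divided by gene length. The steps between low values correspond to about 1.83 M (mega) reads in LPS replicate 1 and up to 5.11 M in untreated replicate 1, and the median member held about 11.7 and 34.1 reads there. These estimates are approximate because the deposited values are quantile-normalised. In LPS replicate 1, 12 members sat at the lowest value of the library, against 0 to 3 in the other libraries. All 8 macrophage markers were listed, with a summed level of 8007 to 8683 CPM in untreated libraries, 3987 to 4866 with LPS and 4746 to 4830 with BMS303141 and LPS. With LPS 6 of them were lower (limma), among them Lyz2, the most abundant (-0.99, adjusted p = 2.41e-05), while Cd14 was higher (1.80, adjusted p = 0.00027) and Adgre1 was not called (0.07, adjusted p = 0.692). Of the 9 neutrophil markers 3 were listed, with sums of 11.3 to 34.2, 38.1 to 66.7 and 183 to 277 CPM in the same order, while the 6 others, Elane, Mpo, Ly6g, Camp, Ngp and Ltf, were not listed. Most of that sum was S100a8, at 3.30, 5.46 and 7.75 log2 CPM. With LPS neither S100a9 (-0.43, adjusted p = 0.757, limma) nor Mmp8 (0.20, adjusted p = 0.588) was called. In BMS303141 and LPS against LPS, S100a8 (2.29, adjusted p = 0.00377, limma) and Mmp8 (1.63, adjusted p = 0.00996) were higher. S100a9 was not called there (0.49, adjusted p = 0.863, limma). Of the 6 mast cell markers Hdc alone was listed, at 2.21 to 2.59 CPM untreated, 106 to 118 with LPS and 60.5 to 77.2 with BMS303141 and LPS. No erythroid gene was listed, and the listed lymphocyte, stromal and dendritic cell genes summed to at most 8.67, 23.7 and 22.5 CPM in any library. Itgax, the only dendritic cell gene listed, was higher with LPS (2.23, adjusted p = 1.35e-05, limma). It was lower in BMS303141 and LPS against LPS (-1.68, adjusted p = 0.00587, limma). The 6 listed mitochondrial transcripts, read as a sign of RNA quality, summed to 3999 to 5041 CPM untreated, 2756 to 3686 with LPS and 3675 to 4077 with BMS303141 and LPS. The part of these genes in the results was not tested.

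Members were expressed at lower levels than the listed genes in general. Their median mean level over the 9 libraries was 2.52 log2 CPM against 3.81 for all tested genes, and single members ran from -0.52 to 7.57. Zfp106 had the highest mean, 7.57 log2 CPM; its protein binds RNA and is needed to maintain motor neurons and muscle. It was followed by Zfp207 at 7.15, which encodes the spindle and splicing protein BuGZ, and Zfp91 at 6.99, a ubiquitin ligase. The difference between Zfp207 and Zfp91 was smaller than the spread of Zfp91 between untreated libraries (SD 0.41, n = 3). Summed over all members, untreated libraries held 3669 to 3865 CPM, LPS libraries 3280 to 3546 and libraries with BMS303141 and LPS 3338 to 3452, so the untreated libraries lay above the other 6.

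LPS lowered more Zfp transcripts than it raised. At an adjusted p under 0.05 (limma) 28 of the 232 members were higher and 53 lower, or 12.1% and 22.8%, against 21.5% higher and 25.4% lower of all 12196 tested genes. In both directions together this was 81 members, 34.9%, against 47.0% of all tested genes. The share of members called higher was thus below that of all genes, while the share called lower was near it. Members had lower levels than genes in general, and low genes pass less often. At or above the median member level 17.2% of members were higher and 29.3% lower, against 24.3% and 27.8% of all tested genes. Below that level the shares were 6.9% and 16.4%, against 15.0% and 19.9%. The median difference, LPS minus untreated, was -0.31 on the log2 scale for members and -0.06 for all tested genes. At least 2-fold changes passed for 12 members upward and 34 downward (5.17% and 14.7%, against 12.8% and 14.3% of all genes). The 3 LPS values lay wholly above the 3 untreated values for 32 members and wholly below for 79 (13.8% and 34.1%, against 23.7% and 28.9% of all genes). In bulk RNA, fewer cells of a type and less RNA per cell cannot be told apart. Of the 81 calls, 50 held in all 18 alternative fits (19 higher and 31 lower), and none of the 81 changed sign. When libraries were centred on ribosomal protein genes, the median of all genes was 0.04 and that of members -0.20, with 28 members higher and 38 lower. The share of all tested genes called under this centring is not given, so these counts describe the members alone.

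**Figure D1:**
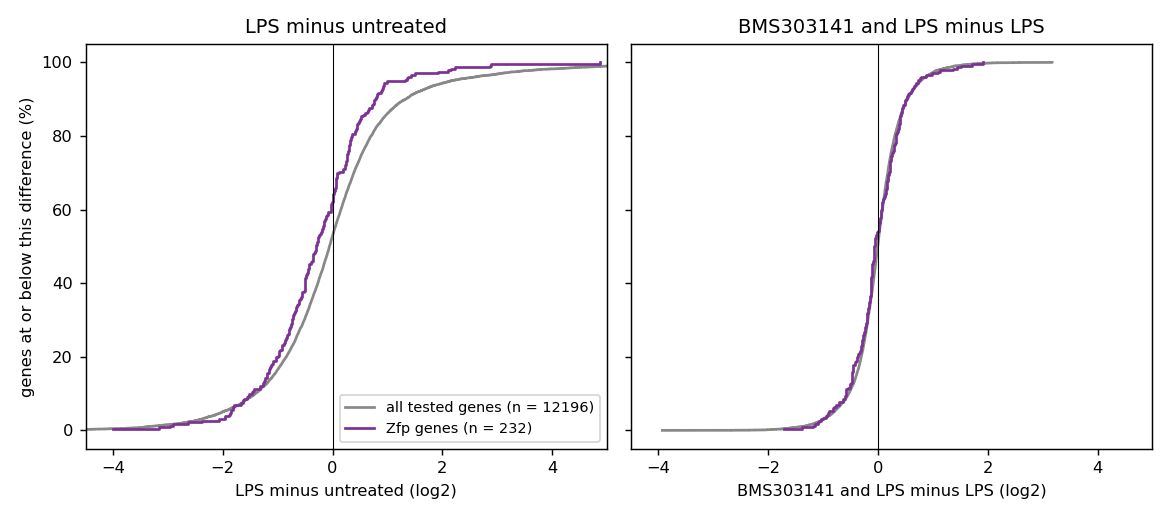
Cumulative share of genes (y axis, percent) at or below each difference (x axis, log2) for LPS minus untreated (left) and BMS303141 and LPS minus LPS (right), for the 232 Zfp genes and for all 12196 tested genes. On the left the curve of the Zfp genes lies to the left of that of all genes through the middle (medians -0.31 and -0.06), and on the right both curves cross 0 close together; the x axis stops short of the most extreme of all genes.

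The largest rises among members at or above the median level were in Zfp948, Zfp800, Zfp131 and Zfp598. That level is the mean over all 9 libraries, LPS-treated ones included. In every untreated library Zfp948 lay below the median of 2.52 log2 CPM, so it met the level rule through its LPS-treated libraries. Zfp948, a KRAB member with 15 fingers (ENSMUSG00000067931, chromosome 17, 21567008 to 21588699, plus strand in GRCm38), was at 1.26, 1.74 and 1.06 log2 CPM in untreated libraries, at 3.92, 3.00 and 3.61 with LPS and at 3.50, 3.51 and 3.55 with BMS303141 and LPS. All 6 LPS-treated libraries lay above every untreated library, and the LPS difference was 2.16 (SE 0.28, adjusted p = 3.46e-05, limma), a 4.46-fold rise. Zfp800 (ENSMUSG00000039841, chromosome 6, 28239927 to 28398005, minus strand) went from 4.98, 5.12 and 5.32 to 6.72, 6.66 and 6.55 log2 CPM, a 2.83-fold rise with no overlap (SE 0.14 on the log2 scale, adjusted p = 1.68e-06, limma). Its level with BMS303141 and LPS, 6.04, 6.47 and 6.15, lay between the untreated and the LPS values in each library.

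Zfp131, a transcription regulator with a BTB domain (ENSMUSG00000094870, chromosome 13, 119765187 to 119790889, minus strand), was at 5.23, 5.32 and 4.91 log2 CPM untreated and at 6.25, 6.74 and 6.54 with LPS. This was a 2.56-fold rise (difference 1.35, SE 0.15, adjusted p = 9.2e-06, limma), and the values with BMS303141 and LPS, 6.47, 6.47 and 6.27, fell within the range of LPS alone or close to it. Zfp598 encodes the ubiquitin ligase that marks collided ribosomes (ENSMUSG00000041130, chromosome 17, 24669687 to 24682016, plus strand). It was at 3.04, 2.51 and 3.26 untreated, at 3.97, 4.43 and 4.36 with LPS and at 4.56, 4.51 and 4.65 with BMS303141 and LPS, and LPS raised it 2.49-fold (SE 0.22 on a log2 difference of 1.32, adjusted p = 0.000249, limma). Untreated libraries were lowest for both genes, with no overlap. Smaller rises without overlap were seen for Zfp597 (1.00, SE 0.25), Zfp654 (0.93, SE 0.24) and Zfp263 (0.92, SE 0.16), a DNA-binding regulator at 6.32 ± 0.32 log2 CPM untreated and 7.24 ± 0.12 with LPS (SD, n = 3). Zfp653 (0.94, SE 0.34) also passed the test, but its call was lost in 5 of the 18 alternatives, and that of Zfp654 was lost with weights per library (adjusted p = 0.0541, limma).

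Zfp704 and Zfp652 fell furthest among members at or above the median level. Zfp704 (ENSMUSG00000040209, chromosome 3, 9427020 to 9610085, minus strand) was at 5.22, 5.09 and 5.14 log2 CPM in untreated libraries, at 2.20, 2.80 and 2.55 with LPS and at 2.41, 2.63 and 2.63 with BMS303141 and LPS. The untreated libraries agreed closely (SD 0.06, n = 3) and lay far above the other 6, a 6.21-fold fall with LPS (difference -2.63, SE 0.21, adjusted p = 2.88e-07, limma). Zfp652, a repressor that works with the corepressor CBFA2T3 (ENSMUSG00000075595, chromosome 11, 95712673 to 95835115, plus strand), went from 5.62, 5.87 and 5.96 to 4.15, 3.82 and 3.61 log2 CPM, a 3.89-fold fall (difference -1.96, SE 0.18, adjusted p = 9.58e-07, limma). With BMS303141 and LPS it was at 4.26, 4.44 and 4.53, above every LPS library and below every untreated library. In all 29 members overlap another listed gene in the annotation, among them Zfp652, Zfp219, Zfp597, Zfp653, Zfp335, Zfp638, Zfp687, Zfp143 and Zfp943, and reads counted for them may be those of the other gene.

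Zfp219, a partner of the cartilage regulator Sox9 (ENSMUSG00000049295, chromosome 14, 52006077 to 52020733, minus strand), fell from 4.90, 5.06 and 5.22 to 3.43, 2.88 and 3.27 log2 CPM (difference -1.87, SE 0.24, adjusted p = 3.14e-05, limma). For Zfp398, a KRAB member (ENSMUSG00000062519, chromosome 6, 47835661 to 47873537, plus strand), the untreated values were 3.59, 3.64 and 4.08 and the LPS values 1.48, 2.30 and 1.96 (difference -1.86, SE 0.29, adjusted p = 0.000149, limma). Neither gene showed overlap between the groups. Also lower without overlap were Zfp608 (-1.79, SE 0.30), known for repressing the Rag recombinase genes in thymocytes, Zfp369 (-1.64, SE 0.23), a neurotrophin receptor interacting factor, Zfp266 (-1.44, SE 0.22) and Zfp120 (-1.26, SE 0.17). For Zfp398 and Zfp608 only the untreated mean lay above the median member level, so both met the level rule through that group. The calls of all 8 named falls held in each of the 18 alternatives, as did those of Zfp948, Zfp800, Zfp131, Zfp598, Zfp597 and Zfp263.

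**Figure D2:**
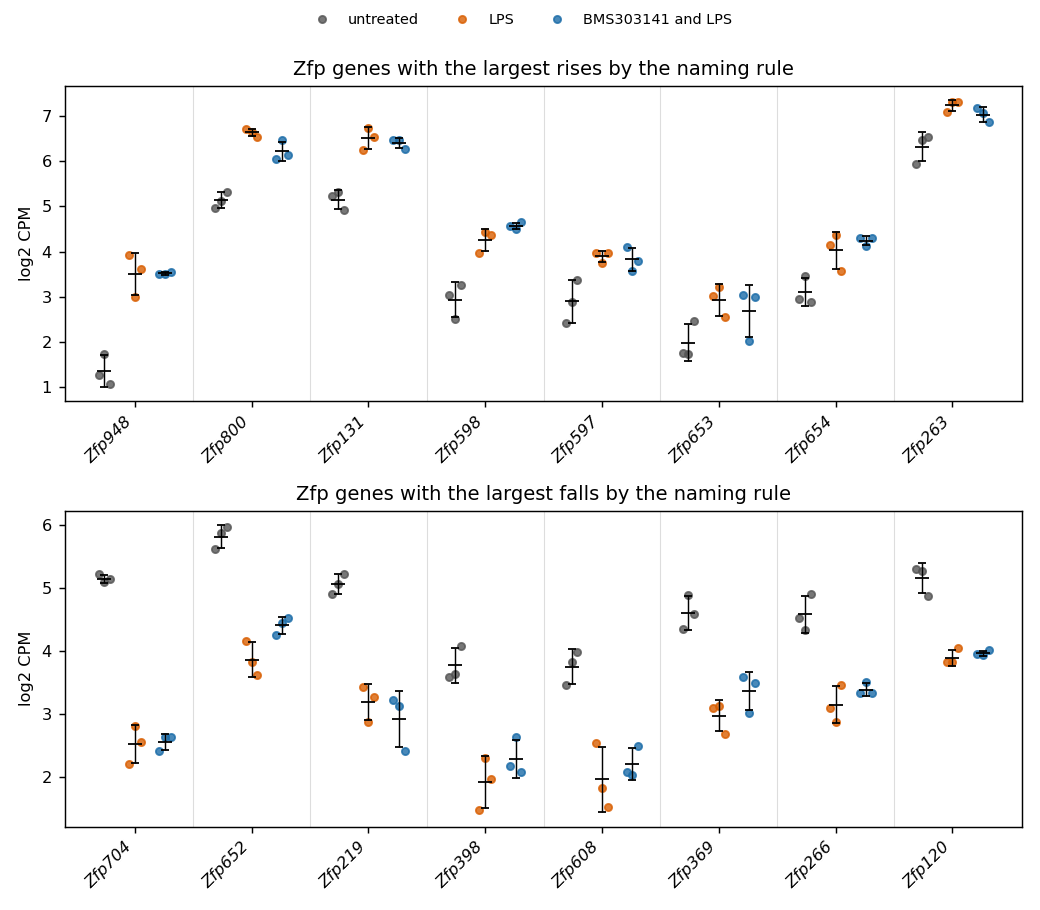
Level (y axis, log2 CPM) of the 8 largest rises (top) and 8 largest falls (bottom) with LPS among called members at or above the median level and without overlap, in each library; points are libraries, coloured by group, and bars the mean and SD of 3 libraries. Zfp704 lies at 5.15 ± 0.06 untreated and 2.51 ± 0.30 with LPS, and the values with BMS303141 and LPS lie near those with LPS for most of these genes.

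Several members below the median level also had large changes, and these are named because of their values. Zfp811, a KRAB member with 13 fingers (ENSMUSG00000055202, chromosome 17, 32795676 to 32809931, minus strand), was at -0.16, -1.58 and -0.87 log2 CPM in untreated libraries, which is a few reads, at 4.07, 3.82 and 4.09 with LPS and at 3.80, 4.10 and 3.71 with BMS303141 and LPS. All 6 LPS-treated libraries lay above 3.7 log2 CPM and all untreated libraries below 0, and the difference of 4.87 (SE 0.34, adjusted p = 7.79e-08, limma) was the largest rise of any member. Zfp811 met the filter on low values only through its LPS-treated libraries, and the size of its rise rests on a few untreated reads. The neighbouring KRAB genes Zfp658 and Zfp719 on chromosome 7, both on the plus strand and 4149 bases apart, rose together. Zfp658 went from 1.39, 0.45 and 0.85 to 3.97, 3.79 and 3.61 log2 CPM (difference 2.89, SE 0.34, adjusted p = 1.12e-05, limma), and Zfp719 from 1.26, -0.04 and 1.56 to 2.80, 3.32 and 2.95 (difference 2.10, SE 0.40, adjusted p = 0.000734, limma). With BMS303141 and LPS the values of Zfp658, 3.13, 2.88 and 2.07, lay below every LPS library, and those of Zfp719, 3.52, 2.81 and 2.81, did not.

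In the other direction Zfp810, a KRAB member on chromosome 9, was at 2.68, 2.80 and 2.95 log2 CPM untreated and at -1.13, -2.33 and -0.11 with LPS, where replicates 1 and 2 were at the lowest value of their libraries, so no fold is given. Its values with BMS303141 and LPS, 0.59, 0.31 and 1.29, lay between these groups. Zfp30, a KRAB gene on chromosome 7, fell from 3.41, 3.82 and 3.82 to 0.18, 0.45 and 1.69 (difference -2.91, SE 0.40, adjusted p = 4.74e-05, limma), and stayed low with BMS303141 and LPS at 0.83, 1.08 and 1.29. Zfp763 fell from 2.42, 3.24 and 3.11 to 0.77, -0.78 and -0.11 (difference -2.96, SE 0.54, adjusted p = 0.000519, limma).

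Promoter sequences from RefSeq (build GRCm38.p6) were searched for 3 short motifs on both strands, in the 250 bases before each annotated start. Of the 232 members 195 matched by symbol, with 239 start sites. The motif of the transcription factor ZNF143, encoded in the mouse by the member Zfp143, was present in 5 member windows, 2.09%, against 0.672% of the windows of all listed genes and 0.262% of all windows in the table. The 5 matches began 22 to 48 bases before the RefSeq start, though that of Zfp1 lies after the GENCODE start of its gene (111643401). Each is given in 30 bases, read on the strand of the match, with the motif in capitals, because of the searched motifs its share differed most, as a ratio, between member windows and all windows.
Zfp933 (chr4:147848431-147848460, minus strand): tttccaaagaACTACAATTCCcagcattcc
Zfp180 (chr7:24081866-24081895, minus strand): gctcaatggaACTACAATTCCcagaactct
Zfp1 (chr8:111643409-111643438, minus strand): gaggtgtaggACTACAATTCCcataatgcc
Zfp692 (chr11:58307011-58307040, plus strand): actaaggctaACTACAATTCCcggcaggct
Zfp58 (chr13:67500532-67500561, plus strand): cagtggccagACTACAATTCCcacaagtct

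The windows of Zfp933 and Zfp692 hold the motif in the direction of the gene and those of Zfp180, Zfp1 and Zfp58 on the opposite strand. Zfp692 fell with LPS, from 3.00, 3.41 and 3.72 to 2.68, 2.07 and 1.96 log2 CPM (difference -1.14, SE 0.28, adjusted p = 0.00483, limma). The other 4 were not called, with LPS differences of -0.57 for Zfp933 (adjusted p = 0.0863, limma), -0.24 for Zfp180 (0.39), -0.97 for Zfp1 (0.0541) and -0.28 for Zfp58 (0.585). Zfp143 itself was at 3.59, 3.33 and 3.89 untreated and at 4.35, 3.68 and 4.17 with LPS, groups that overlap (difference 0.46, adjusted p = 0.0968, limma).

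A motif like that of NF-kB, a main transcription factor of the LPS response, was searched as GGG, then 5 bases of any kind, then CC. It was present in 54.8% of member windows, 61.5% of the windows of listed genes and 45.8% of all windows. The share was 54.5% for members called higher with LPS, 55.6% for those called lower and 54.6% for those not called, so it was about the same whatever the direction of change. A motif like the interferon response element, GAAA, 2 bases of any kind and GAAA, was in 1.67% of member windows. It was in 2.89% of the windows of listed genes and 2.98% of all windows. It was in 0 of the 33 windows of members called higher, 3 of the 54 of members called lower (5.56%) and 1 of the 152 of members not called (0.658%). The 3 windows come from Zfp169, counted at more than 1 start, and Zfp994 alone. Among the largest rises 1 window each of Zfp948 and Zfp800 held 0 matches to the NF-kB-like motif and 1 of Zfp131 held 8, counted on both strands and with overlaps. Among the largest falls 1 window each of Zfp652 and Zfp219 held 0 and that of Zfp398 held 1. Zfp800, Zfp131 and Zfp219 have 2 windows each, of which 1 is given here. The only window of Zfp652 lies inside the gene as annotated in GENCODE, which starts at 95712673. The bases before that start were not searched, so its 0 does not describe them. The window given for Zfp131 also lies partly inside its GENCODE gene, which starts at 119790889 on the minus strand. Some of its 8 matches lie after that start. A rise and a fall without and with a match are given, with the matches in capitals, because either direction was seen with and without these letters in the windows given.
Zfp948 (chr17:21566728-21566977, plus strand): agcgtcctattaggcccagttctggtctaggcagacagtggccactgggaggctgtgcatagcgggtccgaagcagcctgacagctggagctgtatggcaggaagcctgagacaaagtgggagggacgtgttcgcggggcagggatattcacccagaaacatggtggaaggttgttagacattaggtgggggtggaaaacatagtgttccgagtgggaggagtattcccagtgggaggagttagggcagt
Zfp131 (chr13:119790733-119790982, minus strand): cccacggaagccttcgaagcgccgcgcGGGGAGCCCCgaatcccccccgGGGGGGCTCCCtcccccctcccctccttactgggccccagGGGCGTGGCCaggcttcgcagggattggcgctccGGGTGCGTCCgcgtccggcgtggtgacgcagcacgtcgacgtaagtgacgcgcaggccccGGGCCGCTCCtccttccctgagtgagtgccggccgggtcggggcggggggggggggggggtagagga
Zfp652 (chr11:95748817-95749066, plus strand): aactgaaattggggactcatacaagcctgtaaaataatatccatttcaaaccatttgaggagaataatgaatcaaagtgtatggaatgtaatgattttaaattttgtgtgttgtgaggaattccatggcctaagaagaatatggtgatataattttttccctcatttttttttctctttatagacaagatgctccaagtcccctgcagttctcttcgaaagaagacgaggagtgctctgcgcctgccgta
Zfp398 (chr6:47835411-47835660, plus strand): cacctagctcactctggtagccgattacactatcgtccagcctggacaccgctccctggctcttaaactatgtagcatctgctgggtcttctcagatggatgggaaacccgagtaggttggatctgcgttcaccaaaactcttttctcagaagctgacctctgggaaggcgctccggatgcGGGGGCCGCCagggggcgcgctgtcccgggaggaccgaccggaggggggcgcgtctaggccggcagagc

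Members that match a KRAB pattern were expressed at lower levels than the others and were seldom called higher. The pattern holds 8 conserved letters of the KRAB A box, with up to 2 allowed to differ, and 124 of 230 translated members matched it and 106 did not. KRAB members are here those that match. The pattern was read in 1 coding sequence per gene, so a member without a match may still have a KRAB domain. All 8 letters matched in 78 members, 41 differed at 1 and 5 at 2, while 3 (Zfp251, Zfp597 and Zfp236) differed at 3 and 103 at 4 or more. KRAB members had a median of 12 fingers and a median level of 1.88 log2 CPM, and the others 7 fingers and 3.62. With LPS 8 KRAB members were higher and 27 lower (6.45% and 21.8%), against 20 and 26 of the members without KRAB (18.9% and 24.5%), with median differences of -0.42 and -0.15. Level differs between these sets, and genes at low levels pass the test less often: below 2.52 log2 CPM, 15.0% of all tested genes were higher and 19.9% lower, above it 24.3% and 27.8%. Among the 116 members at or above that level 2 of 39 KRAB members were higher and 12 lower, against 18 and 22 of 77 without KRAB, and the median differences were -0.16 and -0.15. Among the 116 below it the counts were 6 and 15 of 85 with KRAB and 2 and 4 of 29 without, with medians of -0.49 and -0.30. Whether the sets differ was not tested.

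**Figure D3:**
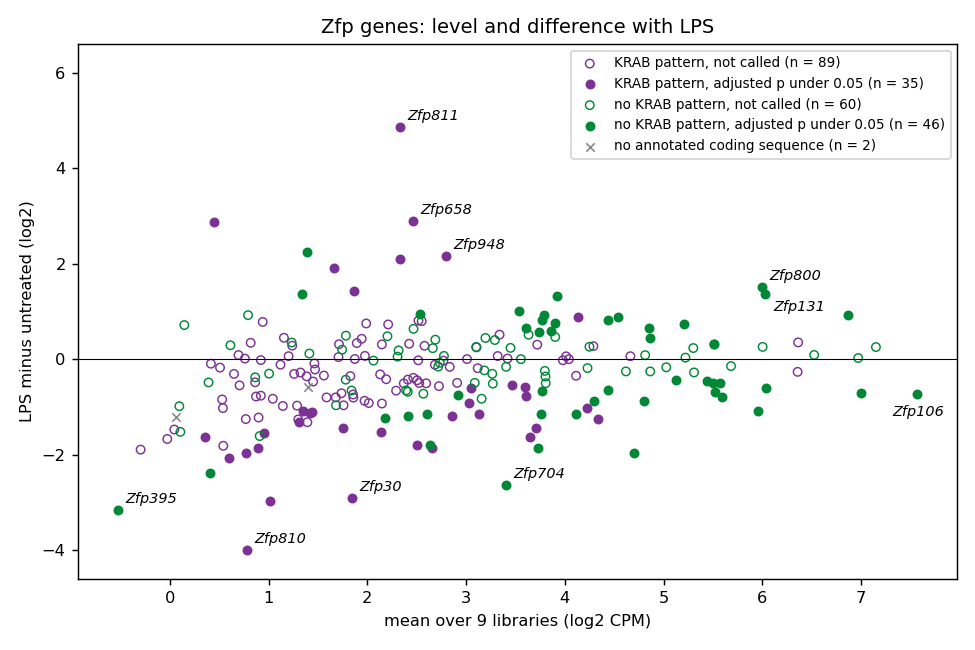
Mean level over the 9 libraries (x axis, log2 CPM) and difference LPS minus untreated (y axis, log2) of the 232 Zfp genes; purple marks genes with the KRAB pattern, green those without, and filled points passed the test. KRAB members crowd at low levels (median 1.88 against 3.62 log2 CPM), and the largest differences, such as Zfp811 at 4.87 and Zfp30 at -2.91, are at low mean levels; the lowest point, Zfp810, has LPS values at the lowest value of a library in replicates 1 and 2, so its position is imprecise.

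Among members known for silencing imprinted genes and retroelements, 5 of the 9 chosen were listed, and 1 was higher, 1 lower and 3 not called with LPS (20.0% each way, against 21.5% higher and 25.4% lower of all tested genes). Zfp568, which silences a placental transcript of Igf2, was at 3.21, 3.91 and 3.42 log2 CPM untreated and 4.19, 4.35 and 4.67 with LPS, with no overlap (difference 0.89, SE 0.21, adjusted p = 0.00343, limma). Zfp809, which binds the primer binding site of murine leukaemia viruses, was at 4.29, 4.23 and 3.60 untreated and 2.80, 3.32 and 3.71 with LPS. These ranges overlap, and its call (difference -0.77, SE 0.26, adjusted p = 0.0271, limma) was lost in 4 of the 18 alternatives, with an adjusted p up to 0.0995. Zfp445, a guardian of imprints, was at 6.57 ± 0.06 log2 CPM untreated and 6.31 ± 0.22 with LPS (SD, n = 3), and did not pass (adjusted p = 0.102, limma). Zfp932 and Zfp992, which act on retroelements, had differences of -0.49 and 0.25 (adjusted p = 0.508 and 0.414, limma).

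Members with roles in RNA and ribosomes had a median level of 5.51 log2 CPM, with single genes from 2.32 (Zfp346) to 7.57 (Zfp106). With LPS 3 of 9 rose, 1 fell and 5 were not called (33.3% and 11.1%, against 21.5% and 25.4% of all tested genes). Zfp593, which takes part in making the large ribosomal subunit, was at 3.10, 2.95 and 3.21 log2 CPM untreated, 3.59, 4.20 and 3.91 with LPS and 4.20, 4.46 and 4.31 with BMS303141 and LPS. The groups with and without LPS did not overlap, and the LPS difference was 0.81 (SE 0.20, adjusted p = 0.00489, limma); Zfp598, described above, changed in the same direction. Zfp326, which links transcription to splicing, had a small rise, from 5.34, 5.25 and 5.28 to 5.69, 5.59 and 5.56 (difference 0.32, SE 0.12, adjusted p = 0.0462, limma), and its call was lost in 13 of the 18 alternatives. Zfp106 fell from 8.08 ± 0.07 to 7.35 ± 0.21 (SD, n = 3; difference -0.73, SE 0.12, adjusted p = 0.000175, limma), with no overlap, and was at 7.27, 7.28 and 7.30 with BMS303141 and LPS. Zfp638, an RNA-binding nuclear protein, differed by 0.02 (SE 0.10) and its 9 values all lay between 6.91 and 7.01. The splicing factor Zfp830 (-0.28), the ribosome biogenesis factor Zfp622 (-0.15), the double-stranded RNA binder Zfp346 (0.18) and Zfp207 (0.25) did not pass (adjusted p = 0.128, 0.597, 0.661 and 0.0648, limma).

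Of 4 members with ubiquitin, SUMO or signalling roles 0 rose and 1 fell, against 21.5% and 25.4% of all tested genes. Zfp91, which modifies the kinase NIK of the non-canonical NF-kB pathway, was at 7.66, 7.45 and 6.87 log2 CPM untreated, 6.28, 6.70 and 6.86 with LPS and 7.27, 6.81 and 7.05 with BMS303141 and LPS. The lowest untreated value, in replicate 3, was just above the highest LPS value, and the call (difference -0.71, SE 0.20, adjusted p = 0.0104, limma) was lost without untreated replicate 1 (adjusted p = 0.0504). The SUMO ligase Zfp451 (0.26), the parkin substrate Zfp746 (-0.03) and the neurotrophin receptor interacting factor Zfp110 (-0.02) did not pass (adjusted p = 0.108, 0.958 and 0.945, limma).

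Transcription regulators with described roles changed in both directions, with 6 of 21 higher and 8 lower (28.6% and 38.1%, against 24.3% and 27.8% of all tested genes at or above the median member level, where all but Zfp395 and Zfp410 lay). Besides Zfp131 and Zfp263, Zfp281, a regulator of pluripotency, rose from 4.38, 4.21 and 4.19 to 4.70, 4.91 and 5.09 log2 CPM (difference 0.64, SE 0.17, adjusted p = 0.00678, limma). Its values with BMS303141 and LPS, 5.46, 5.59 and 5.13, lay above every LPS library, and the 3 groups did not overlap. The difference of Zfp281 from LPS alone did not pass (0.49, adjusted p = 0.185, limma). Zfp384 (0.59), Zfp335 (0.56), part of a histone methylation complex, and Zfp592 (0.44) rose by less, and their calls were lost in 1, 5 and 2 of the 18 alternatives. Among the falls beside Zfp652, Zfp219 and Zfp608, Zfp516, known from brown fat, was at 4.82, 4.91 and 5.05 untreated and 3.92, 3.72 and 3.68 with LPS (difference -1.16, SE 0.18, adjusted p = 0.000133, limma). Zfp318, known for its part in IgD expression in B cells, fell from 6.05, 6.12 and 5.82 to 5.29, 5.13 and 5.20 and was at 5.73, 5.52 and 5.43 with BMS303141 and LPS, between these groups (LPS difference -0.79, SE 0.14, adjusted p = 0.000385, limma). Its difference from LPS alone, 0.35, did not pass (adjusted p = 0.249, limma). Zfp395, which binds the promoter of the huntingtin gene, was at 1.39, 2.15 and 2.37 untreated and -1.13, -2.33 and -0.11 with LPS, with 2 of 3 LPS libraries at their lowest value. It met the filter on low values only through its untreated libraries. The falls of Zfp148 (-0.60, SE 0.17) and of Zfp217 (-0.50, SE 0.15), a partner of a histone demethylase complex, were not called after centring on ribosomal protein genes (adjusted p = 0.0931 and 0.124, limma), and that of Zfp217 also without LPS replicate 3. Zfp292, Zfp703, Zfp143, Zfp410, Zfp609, Zfp367 and Zfp687 were not called, with differences between -0.50 and 0.63.

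**Figure D4:**
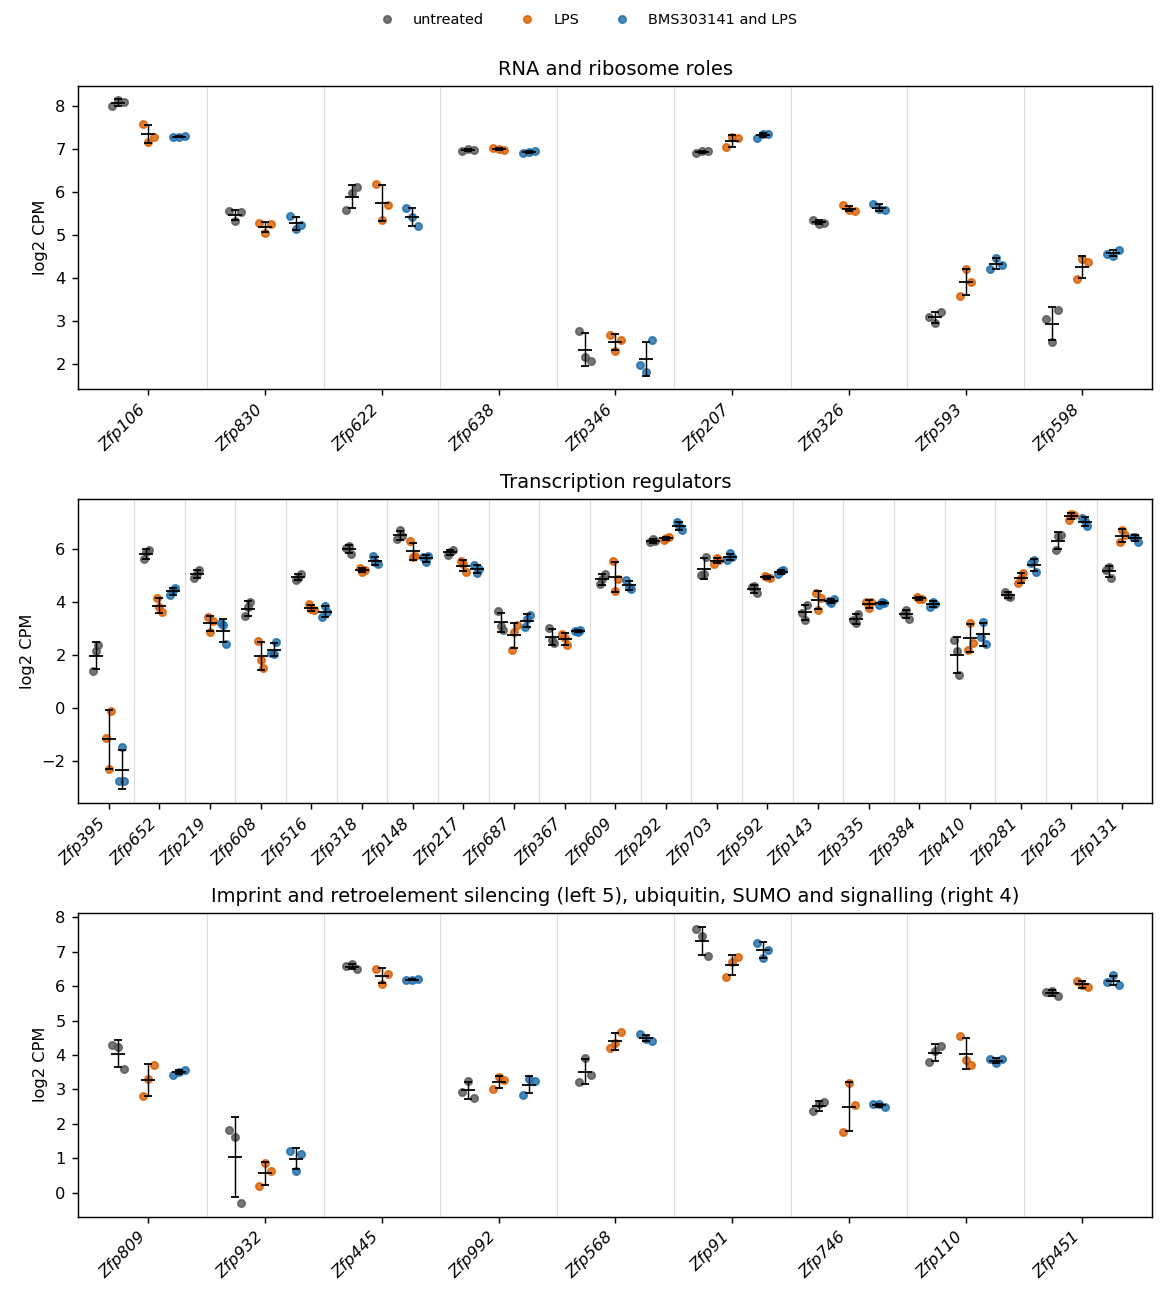
Level (y axis, log2 CPM) of members with described roles in each library, ordered within a panel by their LPS difference; points are libraries, coloured by group, and bars the mean and SD of 3 libraries. In the top panel Zfp638 is level in all libraries (6.91 to 7.01), Zfp106 is lower with LPS and Zfp593 and Zfp598 are higher.

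Members were spread over 20 chromosomes, and 142 of them had another member within 500 kb. The largest such group had 17 genes on chromosome 17, from Zfp160 to Zfp40, all 17 with the KRAB pattern and 12 of them below the median level of the members. Of these 1 was higher with LPS, Zfp948, and 1 lower, Zfp994, which fell from 3.61, 3.41 and 3.60 to 2.80, 2.07 and 2.20 log2 CPM (difference -1.19, SE 0.26, adjusted p = 0.00196, limma). This was 5.88% each way, against 21.5% higher and 25.4% lower of all tested genes. Of all tested genes below the median member level, 15.0% were higher and 19.9% lower. The median difference of the 17 was -0.10. Zfp946 was next to the threshold, with untreated values of 0.85, 1.48 and 1.40 and LPS values of -1.13, -0.04 and -0.11, the first of which is the lowest value of its library (difference -1.67, adjusted p = 0.0547, limma), and 4 of its alternatives did call it. The most abundant of the group, Zfp160, was at 4.26 ± 0.19 log2 CPM untreated and 4.53 ± 0.13 with LPS (SD, n = 3), a difference of 0.27 that did not pass (adjusted p = 0.21, limma). The next 5 groups had 9 or 10 genes each. The 10 genes around Zfp871 on chromosome 17 had 1 higher (Zfp811) and 4 lower, with a median of -0.61, and the 10 around Zfp84 had 1 higher and 1 lower, with a median of -0.33. Of the groups of 9, that around Zfp398 had 0 higher and 3 lower (median -0.72), that around Zfp553 had 0 and 2 (-0.36) and that around Zfp595 had 1 and 1 (-0.28).

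**Figure D5:**
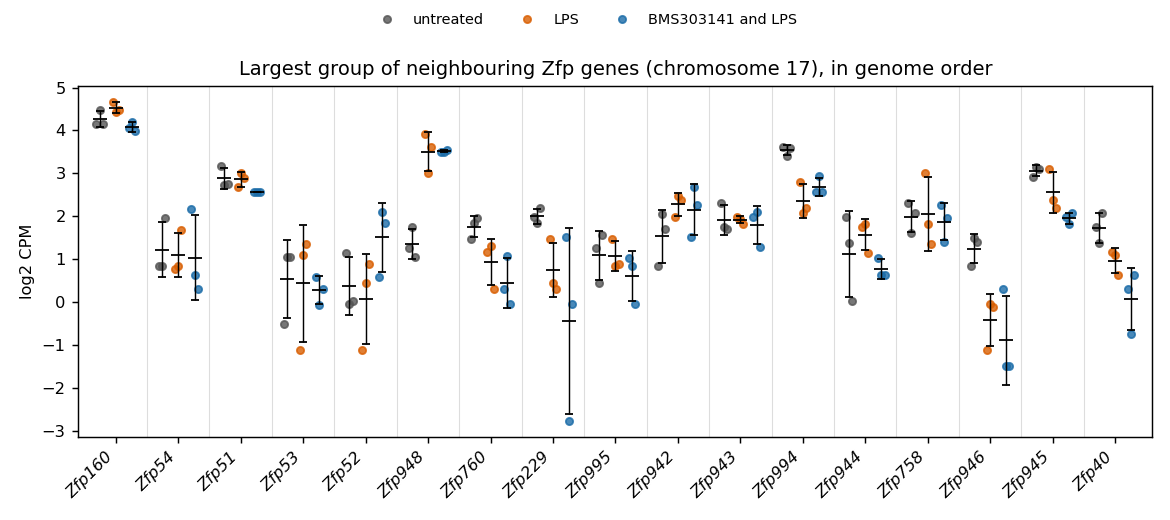
Level (y axis, log2 CPM) of the 17 neighbouring Zfp genes on chromosome 17, in genome order along the x axis, in each library; points are libraries, coloured by group, and bars the mean and SD of 3 libraries. Zfp948 is higher in all 6 LPS-treated libraries and Zfp994 lower, while the median LPS difference of the 17 genes is -0.10.

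Transcripts of the proteins that KRAB domains work with were also measured, while the proteins themselves were not. Of 37 tested genes of the KRAB silencing pathway 1 was higher and 13 lower with LPS (2.7% and 35.1%, against 21.5% and 25.4% of all tested genes). Dnmt1, the maintenance DNA methyltransferase, fell from 6.22 ± 0.26 to 3.59 ± 0.62 log2 CPM (SD, n = 3; adjusted p = 2.23e-06, limma). Atf7ip, which stabilises Setdb1, fell by 1.52 (SE 0.15) on the log2 scale, the DNA methyltransferase Dnmt3a by 1.34 (SE 0.14), and the heterochromatin proteins Cbx3 and Cbx5 by 1.64 and 1.57 (SE 0.27 and 0.17). Of the same families Cbx1 (-0.40, adjusted p = 0.134, limma) and Dnmt3b (-0.08, adjusted p = 0.919) were not called. Setdb1 fell by 0.75 (SE 0.23, adjusted p = 0.0158, limma), a call lost in 4 of the 18 alternatives. Trim28, to which KRAB domains bind, was at 4.97 ± 0.14 untreated and 4.63 ± 0.22 with LPS (SD, n = 3), and its difference of -0.34 did not pass (adjusted p = 0.114, limma). Hdac1 was the gene called higher (0.54, SE 0.18). The count of 14 fell to 8 without LPS replicate 2 and to 9 without LPS replicate 3.

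BMS303141 before LPS changed no Zfp transcript at an adjusted p under 0.05 relative to LPS alone. None of the 232 members was called (limma), against 2.12% of all tested genes, 0.959% higher and 1.16% lower. Of all tested genes below the median member level 0.329% were higher and 0.412% lower, and at or above it 1.23% and 1.47%. At an unadjusted p under 0.05, 14 members were higher and 11 lower (6.03% and 4.74%, against 7.24% and 7.68% of all genes). The groups did not overlap for 20 members upward and 18 downward (8.62% and 7.76%, against 10.1% and 11.2% of all genes), and the median difference was -0.06 for members and 0.00 for all genes. For 123 members the 95% interval lay within 2-fold in both directions, 103 of the 116 at or above the median level and 20 of the 116 below it, so for most low members the interval did not exclude a change of more than 2-fold. Of the 37 KRAB pathway genes limma called 0, while 2 were higher and 1 lower at an unadjusted p under 0.05.

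The members nearest the threshold were Zfp618, Zfp292 and Zfp770. Zfp618 was at 1.92, 1.37 and 0.64 log2 CPM untreated, 1.98, 0.85 and 2.55 with LPS and 3.50, 3.61 and 3.41 with BMS303141 and LPS. The last group was above all 6 other libraries, with a difference from LPS of 1.71 (95% interval 0.79 to 2.64, adjusted p = 0.0592, limma). Zfp292, which has 14 fingers, was at 6.34, 6.41 and 6.45 with LPS and 7.02, 6.86 and 6.71 with BMS303141 and LPS, a difference of 0.46 (95% interval 0.21 to 0.71, adjusted p = 0.0603, limma). Zfp770 had fallen with LPS from 2.95, 2.31 and 2.62 to 1.48, 1.81 and 0.88 (difference -1.24, adjusted p = 0.00583, limma), and was at 2.49, 2.51 and 2.56 with BMS303141 and LPS, 1.13 above LPS alone (95% interval 0.45 to 1.82, adjusted p = 0.0919, limma). With weights per library 9 members were called, 8 higher and 1 lower (3.45% and 0.431%), against 3.34% higher and 3.34% lower of all tested genes under the same weights. Zfp770, Zfp292, Zfp618, Zfp157, Zfp1, Zfp276, Zfp672 and Zfp652 were higher and Zfp146 was lower. Zfp618 was also called without untreated replicate 3 (adjusted p = 0.0374, limma) and, with Zfp810, without LPS replicate 3 (adjusted p = 0.0421 and 0.0495), where the LPS values left for Zfp810 are both the lowest of their libraries.

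For the largest LPS changes the intervals of the inhibitor difference can be set beside the LPS difference, bearing in mind that both comparisons share the LPS libraries. Zfp704 differed from LPS alone by 0.04 (95% interval -0.41 to 0.50) after an LPS difference of -2.63. Zfp948 differed by 0.01 (-0.60 to 0.63), Zfp131 by -0.11 (-0.44 to 0.23) and Zfp811 by -0.12 (-0.87 to 0.62). Of the members with the largest LPS changes described above, 3 had intervals that did not include 0, none of which passed after adjustment, namely Zfp800 at -0.42 (-0.73 to -0.11), Zfp652 at 0.55 (0.16 to 0.93) and Zfp658 at -1.09 (-1.82 to -0.37). No interval is given for Zfp810, whose LPS values include 2 library minima. In each of the 3 the mean with BMS303141 and LPS lay between the untreated and the LPS mean.

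Compared with untreated macrophages, BMS303141 and LPS gave 30 members higher and 62 lower (12.9% and 26.7%, against 21.5% and 25.6% of all tested genes; limma). The median difference was -0.29 for members and -0.05 for all genes, and those of LPS against the same untreated libraries are given above. Of the 92 calls (39.7% of members, against 47.1% of all tested genes) 62 held in all 18 alternatives. Zfp948 was 2.17 above untreated, Zfp811 4.74, Zfp131 1.25 and Zfp800 1.08, and Zfp704 was at -2.59, Zfp219 at -2.14, Zfp652 at -1.41 and Zfp810 at -2.08, all of which passed the test (adjusted p up to 0.00802, limma). Zfp618 (2.19, adjusted p = 0.000952) and Zfp292 (0.55, adjusted p = 0.0017) passed in this comparison and had not with LPS alone (0.48 and 0.09, adjusted p = 0.385 and 0.568, limma). Zfp770 and Zfp91 had passed with LPS alone, and their differences of -0.11 and -0.28 from untreated did not pass (adjusted p = 0.809 and 0.271, limma). Without untreated replicate 3 Zfp91 was called lower here too (-0.51, adjusted p = 0.038, limma). In the direct comparison with LPS alone, Zfp91 (0.43, adjusted p = 0.338, limma) and Zfp770 (1.13, adjusted p = 0.0919) did not pass.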

How the data were processed

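The 9 libraries hold 3′ ends of messenger RNA from mouse macrophages. They were made from 100 ng of total RNA each with the QuantSeq 3′ forward kit and 16 PCR cycles, per the labels' protocols, which mention no molecular identifiers, so reads copied in PCR count more than once. Tools named in the submitters' processing notes, without roles, are featureCounts 1.5.1, STAR 2.5.2b, edgeR, limma and MultiQC, and the build is GRCm38 (mm10). The filter behind the listed genes, like the strand setting and the annotation, was not given in the sources used here. Deposited values are scores on the log2 scale, log2 CPM quantile-normalised by the authors over the 9 libraries, as read from the values: their powers of 2 sum to about 0.987 M per library. This scaling hides any shift shared by most transcripts, and closely related Zfp genes may share or lose reads.

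The filter kept genes at or above a log2 CPM of 0 in 3 or more libraries, 12196 in all (8 removed). A mean per group was fitted over the 9 libraries with limma 3.58.1 in R 4.3.3 (lmFit, eBayes with trend, two-sided, Benjamini-Hochberg over all tested genes), and genes with an adjusted p under 0.05 were called. SE is the moderated standard error and intervals are at 95%. The script was tested on simulated data; recovery of large changes over all genes fell short of the share first set, and the requirement was then limited to genes at or above the median level, so the fit is less sensitive for low genes.

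The members, lists and tests were chosen with earlier results of these data known. Named by rule are the listed members of 4 role lists, the 8 largest LPS rises and falls (called, without overlap, mean at or above the median member), the 3 smallest p with the inhibitor, the 3 highest means, the largest group of neighbours, and among KRAB partners Trim28, Setdb1 and the smallest p. Zfp811, Zfp658, Zfp719, Zfp810, Zfp30, Zfp763, the genes with a ZNF143 motif, the genes called under single alternatives and the other partners were named after their values were seen, as were the printed promoters. The division of members by level and the window of 250 bases before the start, in place of the 300 bases of the promoter table, were also chosen then. Fingers and the KRAB pattern were read from the longest coding sequence of GENCODE M21, which gave symbols and coordinates too (12185 of 12204 identifiers matched). Depth was estimated from value steps 5 to 40 of each library. Alternatives were a replicate block, no filter and a filter at 2 log2 CPM, repeated quantile normalisation, median and ribosomal protein centring (79 genes), weights per library, no mean trend, the compared groups alone and leaving out each library.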

Additional observations from a re-analysis of the deposited data

How the results depend on the processing

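Counts of members called stayed within 1.5 times their value under every alternative for LPS against untreated and for BMS303141 and LPS against untreated. Apart from weights per library, the shares of all tested genes called under the alternatives are not given. The counts below therefore describe the members and partners alone. Leaving out 1 library gave 63 to 90 members called with LPS (23 to 30 higher, 40 to 60 lower) and 72 to 105 with BMS303141 and LPS against untreated (25 to 33 and 45 to 72). BMS303141 and LPS against LPS had 0 called, and 9 with weights per library (8 higher, 1 lower); leaving out 1 library gave 0 to 2 (0 to 2 higher, 0 to 0 lower), with 1 without untreated replicate 3 and 2 without LPS replicate 3. KRAB partners called with LPS numbered 8 to 15 without 1 library, 11 to 17 against untreated with BMS303141 and LPS, and 0 to 0 with BMS303141 and LPS against LPS. The cause of these shifts was not tested. With the replicate number as a block, members called were 26 higher and 50 lower with LPS, 0 with BMS303141 and LPS against LPS, and 30 and 60 against untreated, and 14 KRAB partners. Correlations of deviations from group means ran from -0.30 to 0.17 for libraries that share a number. For other pairs of libraries from different groups they ran from -0.21 to 0.29. With 3 libraries per group these values cannot tell whether the number marks a shared mouse or batch, and no pairing was assumed. In the promoter table's full 300 bases, a window considered before the 250 bases were chosen, the NF-kB-like motif was in 61.5% of member windows, 67.3% of those of listed genes and 50.8% of all windows. The shares of member windows with the other motifs did not move, while over all windows the interferon-like motif was in 3.44% and the ZNF143 motif in 0.286%, and over those of listed genes the latter was in 0.739%. Over the named genes, comparisons and alternatives, 3893 calls were the same, 80 were lost and 41 gained, and no called change turned its direction. Depth limits the low members: the median half-width of a 95% interval was 0.47 log2 units at or above the median level and 0.94 below it.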

Other observations

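Genes next to the members with large LPS changes were looked at after those changes were seen, and are given as values. Within 100 kb of Zfp658 and Zfp719 on chromosome 7, all 3 other tested genes were higher with LPS: Cd33, a sialic acid-binding receptor, by 2.29 (SE 0.38, adjusted p = 0.00024, limma), Siglece, another such receptor, by 4.12 (SE 0.59, adjusted p = 7.44e-05) and the tRNA-modifying enzyme gene Ctu1 by 2.05 (SE 0.23, adjusted p = 8.03e-06). With BMS303141 before LPS, Cd33 differed from LPS alone by 0.39, Siglece by -0.81 and Ctu1 by 0.14, none of which passed (adjusted p = 0.672, 0.561 and 0.813, limma).

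Zfp800 on chromosome 6 was followed on its own strand by 3 predicted genes that were also higher with LPS. Gm42548, 2914 bases away, rose by 1.76 (SE 0.31, adjusted p = 0.00044, limma), Gm42549, 13757 bases away, by 1.68 (SE 0.34, adjusted p = 0.00122) and Gm42547, 25122 bases away, by 2.12 (SE 0.45, adjusted p = 0.00173). The protein-coding neighbours Gcc1, Arf5 and Snd1 were not called, with LPS differences of -0.18, -0.33 and 0.21 (adjusted p = 0.42, 0.193 and 0.236, limma). Zfp811, with the largest rise of all members, lies among the KRAB genes Zfp871, Zfp799 and Zfp870, which were not called (0.35, -0.80 and -1.26; adjusted p = 0.103, 0.0894 and 0.0791, limma). Of 4 tested genes within 100 kb of Zfp810, which was lower with LPS, Zfp809 was lower (-0.77, SE 0.26, adjusted p = 0.0271, limma), the pseudogene Rpl15-ps3 was higher (0.55, SE 0.20, adjusted p = 0.0396), and Gm10182 and Anln were not called (-0.24 and -0.94, adjusted p = 0.774 and 0.273). Whether reads past the end of one gene were counted for the next was not tested.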
